A study of Homo sapiens with 6 samples.

Results

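Replication-dependent histone genes encode the bulk of the histones that package newly copied DNA. The 66 genes described here are the rows of the deposited count table whose symbols are H1-1 to H1-6, or H2AC, H2BC, H3C or H4C followed by a number, out of 50550 rows in all. The rule uses symbols and no measured value, but this gene family was picked with earlier results of these data known. They comprise 6 linker histone H1 genes, 16 H2A, 17 H2B, 13 H3 and 14 H4 genes. RNA-seq libraries were made from U2OS cells, a human line established from an osteosarcoma, with 3 libraries titled Lv_LINC00673 and 3 titled Lv_NC. The design text names knockdown of the long noncoding RNA LINC00673 and wild-type cells, and what NC stands for is not spelled out. The genotype labels read LINC00673 and NC, all 6 libraries come from the same line, and no clone, culture time or number of independent cultures is given. The spread behind each p-value is therefore that of these libraries alone and could be purely technical.

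Total counts were 61815841 to 71237493 per Lv_LINC00673 library and 76814723 to 87227980 per Lv_NC library. LINC00673 itself stood at 6.54, 6.23 and 6.38 TMM-normalized CPM (counts scaled to library depth with trimmed-mean factors) in Lv_LINC00673, against 9.16, 9.27 and 7.07 CPM in Lv_NC, and did not pass the test (log2 fold change -0.41, SE 0.16, edgeR adjusted p = 0.0924), so the groups are called by their titles. Of 7 mesenchymal and bone markers 5 averaged at least 1 CPM, led by VIM and SPARC, while TWIST1 had no count and COL1A2 did not exceed 0.178 CPM. The blood markers PTPRC, CD3E and HBB were at 0.178 CPM or less, while CD68 reached 57.1 to 77.4 CPM. Summed epithelial markers (3 of 5 averaged at least 1 CPM) stood at 22.3 to 23.3 CPM in Lv_LINC00673 and 17.2 to 20.4 CPM in Lv_NC, and endothelial ones (2 of 4) at 4.82 to 6.17 CPM in Lv_LINC00673 and 3.49 to 4.14 CPM in Lv_NC; their part in the results was not tested. Of 21933 genes tested, 3145 were higher and 2738 lower in Lv_LINC00673, and with library totals in place of TMM factors 4049 were higher and 1225 lower, with the median log2 fold change of all genes at 0.22 instead of 0.05.

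Nucleosomes are built from the core histones H2A, H2B, H3 and H4, and linker histone H1 binds the DNA between them. Most replication-dependent histone genes lie in clusters, are transcribed in S phase under the coactivator NPAT, and give messages that lack introns and end in a short stem-loop in place of a poly(A) tail. The stem-loop is bound by SLBP, which the messages need for processing and translation. Some of these genes are also known to give polyadenylated transcripts that read past the stem-loop, mostly in cells that have left the cycle. The labels name a TruSeq RNA kit and total RNA, and the sources used here do not give whether poly(A) RNA was selected.

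The stem-loops of the 8 members past the threshold in which one was found are shown first, because they mark where the S-phase form of each message ends. They were read from GENCODE 29 transcripts (GRCh38), in which 62 of the 66 genes had a transcript. The histone stem-loop motif, 16 bases long and searched on the transcript strand, was found in 26 of these genes and in 45 of all 58676 genes (0.0767%). No match says only that the letters are not in that sequence. Capitals mark the stem-loop, and the small letters are the 5 bases on each side.
H2AC6: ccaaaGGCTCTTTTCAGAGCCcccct
H2BC4: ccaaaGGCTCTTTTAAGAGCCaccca
H2BC5: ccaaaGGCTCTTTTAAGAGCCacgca
H2BC21: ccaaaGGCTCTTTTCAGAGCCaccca
H3C10: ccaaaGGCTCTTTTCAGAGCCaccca
H4C14: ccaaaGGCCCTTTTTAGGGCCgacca
H4C15: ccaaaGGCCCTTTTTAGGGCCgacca
H4C8: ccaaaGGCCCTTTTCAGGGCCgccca
The most frequent core, shared by H2AC6, H2BC21 and H3C10, stood in 13 of the 26 genes. H2BC4 and H2BC5 shared a form found in 4 genes, and H4C14 and H4C15 one found in 3 genes. The annotated transcripts of 20 of the 26 genes ran on for more than 100 bases past the stem-loop, by up to 1128 bases in H2AC6, 1729 in H2BC21 and 1314 in H4C15. A stem-loop could be found only where an annotated transcript reaches it, so this share does not hold for the other members.

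As a whole the 66 genes gave few counts, and more of them in Lv_LINC00673. They took 0.0885, 0.0872 and 0.0930% of all counts in Lv_LINC00673 libraries 1 to 3, against 0.0537, 0.0545 and 0.0523% in Lv_NC libraries 1 to 3, and the groups did not overlap. The genes H2BC12 and H1-2 alone held 57.1 to 58.7% of these counts in Lv_LINC00673 and 62.3 to 63.5% in Lv_NC, with the near-identical rows H2AC18 and H2AC19, and H3C14 and H3C15, each counted once. Without these 2 genes the summed level was still 324 to 352 CPM in Lv_LINC00673, against 191 to 209 CPM in Lv_NC. In a mixed RNA sample, more cells in S phase and more histone RNA per cell cannot be told apart. Nor can the stem-loop and polyadenylated forms of these messages, since poly(A) selection is not given. The counts therefore need not measure the S-phase form.

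Of the 66 genes, 14 had no count in any library, 14 had counts too low for the test and 38 were tested. By edgeR's quasi-likelihood test, at an adjusted p under 0.05, 14 of the 38 were higher in Lv_LINC00673 (36.8%), where 14.3% of all genes tested did. None was called lower, where 12.5% of all genes were. No member was lower at an unadjusted p under 0.05 either. DESeq2 called 15 of the 38 higher, where 16.6% of all genes were, and 0 lower. The median log2 fold change of the 38 was 0.62, against 0.05 for all genes tested, and 35 of the 38 values were above 0. The genes that passed had at least 2-fold differences in 8 cases, where 7.55% of all genes were higher by that much. The members' libraries lay apart, all Lv_LINC00673 above all Lv_NC, at 21 of 38, against 23.7% of all genes tested. No member tested had all Lv_LINC00673 libraries lower, against 21.4% of all genes tested.

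**Figure D1:**
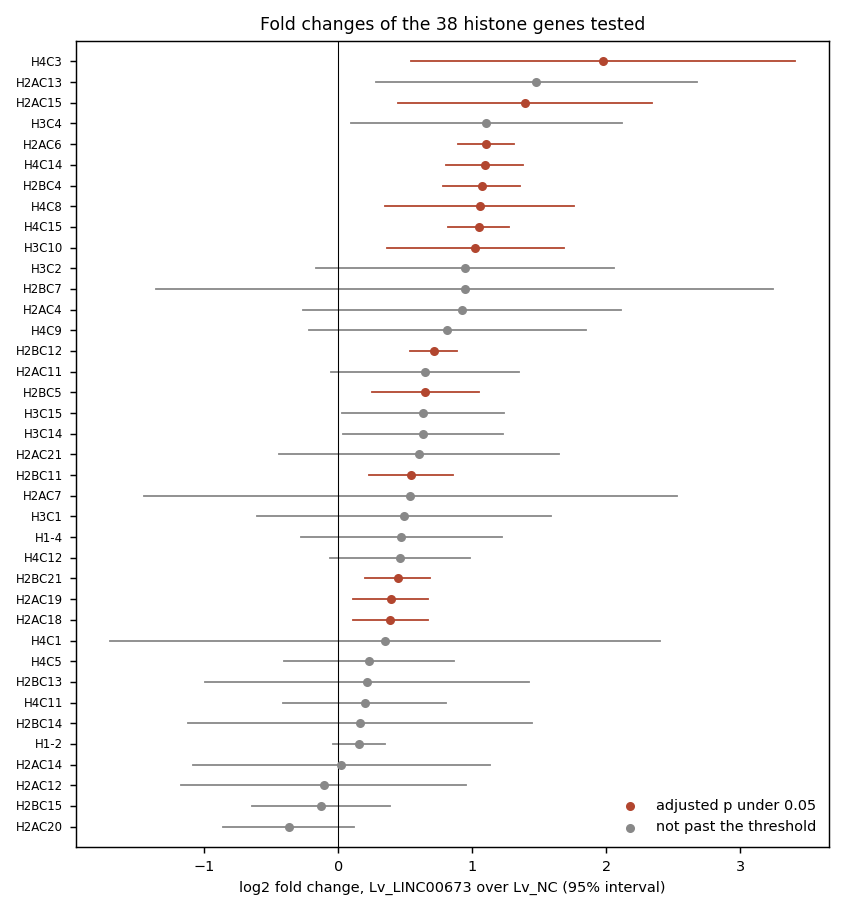
Log2 fold change of Lv_LINC00673 over Lv_NC (x axis) for each of the 38 histone genes tested (y axis), with 95% intervals; red marks the 14 genes past an adjusted p of 0.05. The points run between -0.37 for H2AC20 and 1.98 for H4C3, and all 14 red points lie above 0.

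H2A genes, whose protein pairs with H2B in the nucleosome, were led by H2AC6. It stood at 90.0, 78.9 and 86.7 CPM in Lv_LINC00673, against 39.6, 40.9 and 38.4 CPM in Lv_NC. The groups lay far apart beside the spread within each (2.15-fold, log2 fold change 1.10, SE 0.09, adjusted p = 0.00109). H2AC6 lies on chromosome 6, on the plus strand, starting at 26124172. H2AC18 had 40.1, 34.8 and 35.3 CPM in Lv_LINC00673, against 27.1, 31.8 and 25.3 CPM in Lv_NC, which is a smaller difference that just passed (1.31-fold, adjusted p = 0.0478). Its near-identical neighbour H2AC19 had 39.9, 35.3 and 35.1 CPM in Lv_LINC00673, against 27.0, 31.8 and 25.4 CPM in Lv_NC (adjusted p = 0.0456). The counts of these 2 rows differed by 2 to 29 in each library, and 249 of their 250 promoter bases are equal after a shift of 1 base. They therefore cannot be told apart. With both this pair and H3C14 and H3C15 merged, 13 of 36 members were called higher, where 14.3% of all genes were. H2AC15 also passed at a low level, with 0.833, 0.836 and 0.645 CPM in Lv_LINC00673, against 0.194, 0.247 and 0.439 CPM in Lv_NC (adjusted p = 0.0383, log2 fold change 1.40, SE 0.42).

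The other 8 H2A genes tested did not pass. H2AC20 had 4.88, 3.37 and 4.66 CPM in Lv_LINC00673, against 4.37, 6.19 and 6.13 CPM in Lv_NC, and its groups overlapped (log2 fold change -0.37, SE 0.21, adjusted p = 0.238). H2AC11 had 3.02, 3.23 and 3.97 CPM in Lv_LINC00673, against 2.39, 2.90 and 1.22 CPM in Lv_NC (adjusted p = 0.154). H2AC13 had 0.779, 0.358 and 0.762 CPM in Lv_LINC00673, against 0.258, 0.308 and 0.110 CPM in Lv_NC, a wide spread at a low level (log2 fold change 1.48, SE 0.53, adjusted p = 0.0682). H2AC4, H2AC7, H2AC12, H2AC14 and H2AC21 all averaged under 1 CPM in both groups.

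H2B genes held the largest share of the counts and 5 of the 9 tested passed. H2BC12 was the highest member in CPM, with 285, 272 and 290 CPM in Lv_LINC00673, against 172, 178 and 167 CPM in Lv_NC (1.64-fold, log2 fold change 0.71, SE 0.08, adjusted p = 0.00256). H2BC4 had 20.2, 19.4 and 18.3 CPM in Lv_LINC00673, against 9.61, 8.75 and 9.24 CPM in Lv_NC (2.10-fold, log2 fold change 1.07, SE 0.13, adjusted p = 0.00323). In both genes the spread within a group was small beside the gap between groups. H2BC21 had 45.7, 42.4 and 50.2 CPM in Lv_LINC00673, against 31.6, 34.0 and 36.2 CPM in Lv_NC (1.36-fold, adjusted p = 0.019). H2BC11 had 17.6, 15.9 and 15 CPM in Lv_LINC00673, against 10.2, 12 and 11.2 CPM in Lv_NC (1.46-fold, adjusted p = 0.022). H2BC5 had 11.7, 15.3 and 14 CPM in Lv_LINC00673, against 9.80, 9.19 and 7.17 CPM in Lv_NC (1.57-fold, adjusted p = 0.0275). H2BC15 was level, with 1.87, 2.90 and 3.01 CPM in Lv_LINC00673, against 3.01, 2.86 and 2.63 CPM in Lv_NC, and its 95% interval on the log2 scale ran between -0.65 and 0.39. H2BC7, H2BC13 and H2BC14 averaged under 1 CPM and did not pass.

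**Figure D2:**
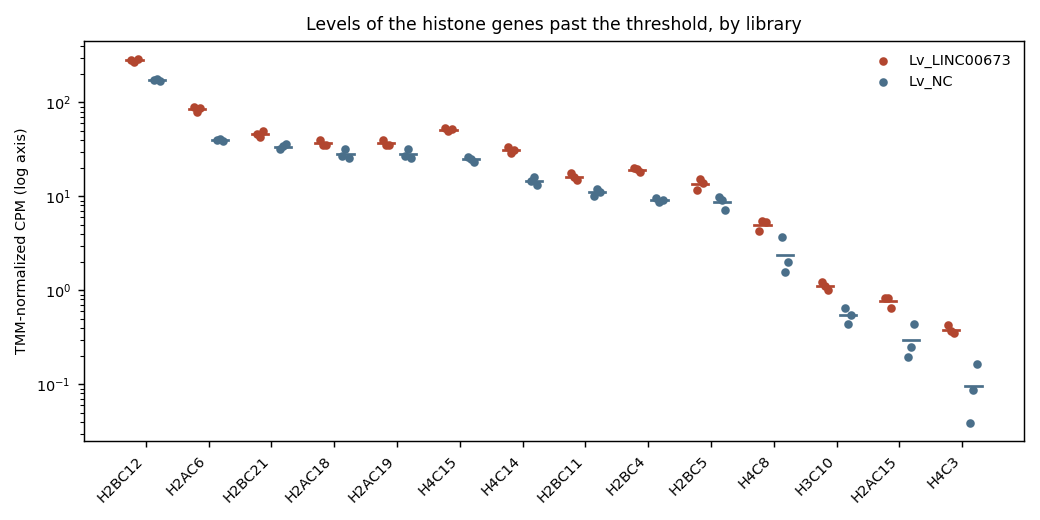
TMM-normalized CPM (log axis) of the 14 histone genes past the threshold in each library, Lv_LINC00673 in red and Lv_NC in blue, with bars at group means. The red and blue points of a gene do not overlap, and levels run from 290 CPM for H2BC12 to 0.0387 CPM for H4C3.

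H3 genes, whose protein carries many of the best-known chromatin marks, were low throughout, and 1 of 6 tested passed. H3C10 had 1.22, 1.10 and 1.01 CPM in Lv_LINC00673, against 0.646, 0.444 and 0.548 CPM in Lv_NC (adjusted p = 0.0323, log2 fold change 1.02, SE 0.29). H3C4 had 3.89, 5.03 and 3.30 CPM in Lv_LINC00673, against 0.659, 2.74 and 2.28 CPM in Lv_NC, and did not pass (log2 fold change 1.11, SE 0.44, adjusted p = 0.0992). Its libraries lay apart, but 1 Lv_NC library was far below the other 2. H3C14 had 2.40, 1.58 and 2.04 CPM in Lv_LINC00673, against 1.29, 1.02 and 1.58 CPM in Lv_NC (adjusted p = 0.11), and H3C15, whose counts differed from those of H3C14 by at most 5 in any library, gave an adjusted p of 0.113. H3C1 and H3C2 did not pass.

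H4 genes nearly all encode the same small core histone, and 4 of 9 tested passed. How reads that match more than 1 member were counted is not given. H4C15 had 52.8, 49.2 and 51.6 CPM in Lv_LINC00673, against 26.3, 24.9 and 23.1 CPM in Lv_NC (2.07-fold, log2 fold change 1.05, SE 0.10, adjusted p = 0.00211). H4C14 had 33.5, 29.3 and 30.9 CPM in Lv_LINC00673, against 14.6, 16.1 and 13.2 CPM in Lv_NC (2.13-fold, log2 fold change 1.09, SE 0.13, adjusted p = 0.00297). The 250 bases before the start of H4C14 and of H4C15 are equal, and the sources used here do not give how reads were divided between them. H4C8 had 4.28, 5.45 and 5.29 CPM in Lv_LINC00673, against 3.68, 1.55 and 1.99 CPM in Lv_NC (adjusted p = 0.0364, log2 fold change 1.06, SE 0.31). H4C3 was counted 31, 25 and 24 times in Lv_LINC00673 libraries, against 3, 7 and 12 times in Lv_NC libraries (adjusted p = 0.0478, log2 fold change 1.98, SE 0.63), so its fold rests on few reads. H4C11 had 2.66, 2.33 and 2.20 CPM in Lv_LINC00673, against 2.12, 2.75 and 1.40 CPM in Lv_NC, and overlapped. H4C1, H4C5, H4C9 and H4C12 did not pass, with log2 fold changes between 0.23 for H4C5 and 0.81 for H4C9.

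Linker histone genes did not pass the test. H1-2 had 183, 172 and 199 CPM in Lv_LINC00673, against 165, 167 and 165 CPM in Lv_NC, a difference of 1.11-fold (log2 fold change 0.15, 95% interval -0.04 to 0.35, adjusted p = 0.211). All 3 Lv_LINC00673 libraries lay above all 3 Lv_NC libraries, by little. H1-4 had 1.87, 2.34 and 4.08 CPM in Lv_LINC00673, against 2.18, 2.37 and 1.43 CPM in Lv_NC, and overlapped (adjusted p = 0.327). H1-3 and H1-5 had no count, and H1-1 and H1-6 had 29 and 17 counts over the 3 Lv_LINC00673 libraries, against 4 and 0 over the 3 Lv_NC libraries.

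**Figure D3:**
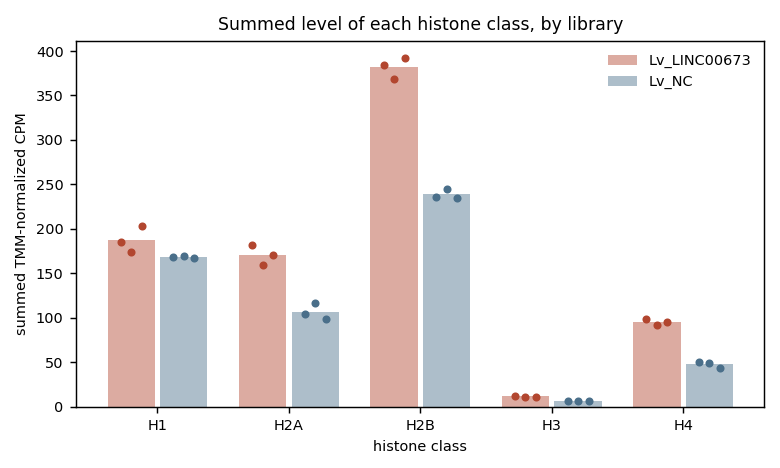
Summed TMM-normalized CPM of all member rows of each histone class, Lv_LINC00673 in red and Lv_NC in blue, with bars at group means and points for libraries; repeated rows such as H2AC18 and H2AC19 are both included. H2B sums were 369 to 392 CPM in Lv_LINC00673 and 235 to 245 in Lv_NC, H4 sums 91.7 to 98.2 in Lv_LINC00673 and 43.1 to 49.8 in Lv_NC, and H1 sums 174 to 203 in Lv_LINC00673 and 167 to 169 in Lv_NC.

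The 14 members with counts too low for the test gave 207 counts over the 3 Lv_LINC00673 libraries and 94 over the 3 Lv_NC libraries, out of 196990809 and 245191308 counts in all. Of these, 11 had more counts in Lv_LINC00673 and 3 had more in Lv_NC. H2BC6, H2BC8 and H1-6 had 27, 17 and 17 counts in Lv_LINC00673 and none in Lv_NC, while H2AC17 had none in Lv_LINC00673 and 10 in Lv_NC. H4C2 and H2BC18 had 32 and 17 counts in Lv_LINC00673, against 10 and 4 in Lv_NC, and H2AC8 had 5 in Lv_LINC00673 and 13 in Lv_NC. H4C4 and H3C6 were close, with 24 and 15 counts in Lv_LINC00673 and 29 and 14 in Lv_NC. H3C13, H2BC17, H2BC9 and H3C3 had at most 10 counts in either group. The 14 members without a count were H1-3, H1-5, H2AC1, H2AC16, H2BC1, H2BC3, H2BC10, H3C7, H3C8, H3C11, H3C12, H4C6, H4C7 and H4C13. A count of 0 in a library still allows up to 3 counts, so their absence is not shown.

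On a scale per length, the deposited FPKM values (fragments scaled to gene length and library depth), the order of the highest members was not the same in both groups. In Lv_NC, H1-2 was at 208, 205 and 207 FPKM and H2BC12 at 189, 190 and 183 FPKM. In Lv_LINC00673, H2BC12 was at 338, 340 and 356 FPKM and H1-2 at 247, 245 and 279 FPKM. H2AC6 followed with 171, 158 and 171 FPKM in Lv_LINC00673 and 70.3, 70.6 and 67.8 FPKM in Lv_NC. H2AC18 and H4C14 came next, at 68.0 to 74.2 and 77.1 to 83.5 FPKM in Lv_LINC00673, against 43.5 to 53.4 and 30.6 to 36.3 FPKM in Lv_NC. The FPKM of H4C15 was 96.8, 91.6 and 51.7 in Lv_LINC00673, against 43.0, 26.9 and 36.6 in Lv_NC, and the length implied by its counts and FPKM varied between 561 and 1064 bases from library to library, so its place in the order is uncertain. H3C4 varied likewise, from 528 to 938 bases, and the other members with at least 50 counts by at most 1.20 times.

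By position, the genes fell into 4 groups, and members of each passed. On chromosome 1, from 149782689 to 149887965, 5 of 9 tested passed, and the summed level of all 11 rows was 198 to 222 CPM in Lv_LINC00673 and 133 to 147 CPM in Lv_NC. The first group on chromosome 6, from 25726063 to 26285534, held 34 genes, of which 5 of 15 tested passed, with 303 to 338 CPM in Lv_LINC00673 and 229 to 236 CPM in Lv_NC. The small second group, 27132316 to 27147562, held H2BC11, H2AC11, H2BC12, H4C9 and H2AC12, and 2 of these 5 passed, with 292 to 310 CPM in Lv_LINC00673 and 181 to 194 CPM in Lv_NC. In the third, 27807479 to 27893891, 2 of 9 tested passed and the sums of 10.9 to 11.2 CPM in Lv_LINC00673 lay close to the 7.85 to 10.1 CPM in Lv_NC. RefSeq gives 8 members a span over 1000 bases, which takes in introns or sequence beyond the short S-phase message. Of the 6 of these that were tested, 5 passed (H2BC4, H2BC5, H2BC12, H2BC21 and H4C15). Among all members tested 14 of 38 were called higher, and 14.3% of all genes tested. These 5 were also among the members with more reads, at means of 8.72 to 172 CPM in Lv_NC, and a link with span was not tested. The span of H4C15 runs over H2AC19 and H3C15 and that of H2BC12 over H4C9, on the opposite strand, and that of H3C4 over H2AC7 on the same strand. Without the strand and counting rules, reads of these pairs cannot be told apart.

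Many H2A and H2B genes sit head to head and share the stretch between their starts, so the partners of a pair can be set beside each other. H2BC4 and H2AC6 start 246 bases apart, and both were about 2-fold higher in Lv_LINC00673 (2.10-fold and 2.15-fold), at levels that differed 4.31 times in Lv_NC. H2BC21 and H2AC20 start 236 bases apart, and H2BC21 passed as higher (log2 fold change 0.44, SE 0.11) while H2AC20 did not and had a value below 0 (-0.37, SE 0.21). H2BC12 and H2AC12 start 248 bases apart and differed most in level, with H2BC12 at 282 ± 9.56 CPM in Lv_LINC00673 and 172 ± 5.23 CPM in Lv_NC (SD, n = 3 each) and H2AC12 at 0.449 ± 0.148 CPM in Lv_LINC00673 and 0.486 ± 0.187 CPM in Lv_NC. H2BC11 and H2AC11 had log2 fold changes of 0.54 and 0.65, of which only the first passed, and H2AC15 and H2BC15 had 1.40 and -0.13, of which only that of H2AC15 passed. The difference between partners of a pair was not tested.

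**Figure D4:**
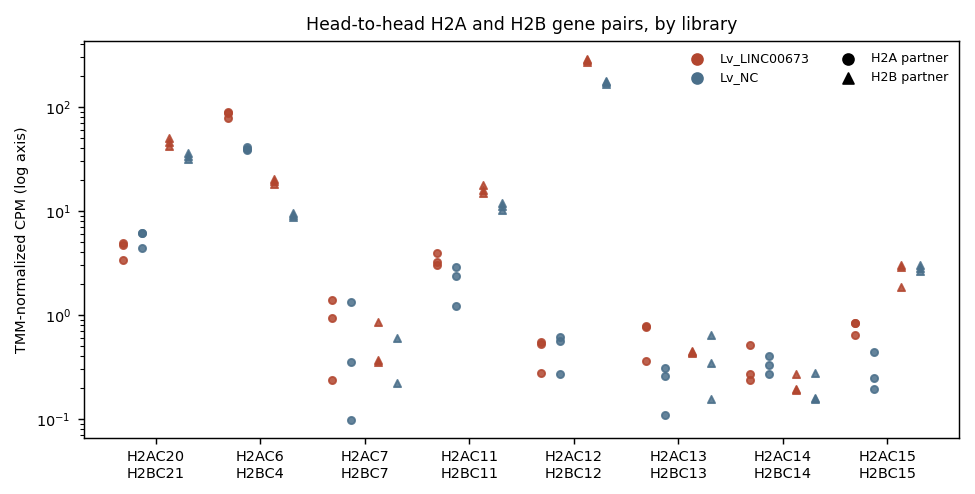
TMM-normalized CPM (log axis) of head-to-head H2A genes (circles) and H2B genes (triangles) in each library, Lv_LINC00673 in red and Lv_NC in blue; the Lv_NC library with no H2BC7 count is not drawn. Both partners are higher in Lv_LINC00673 for H2AC6 and H2BC4, while H2AC12 stays at 0.271 to 0.617 CPM beside H2BC12 at 167 to 290 CPM.

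The promoters of 3 such stretches and of H4C14 are shown because partners on 1 stretch differed in level or change. Sequences are from RefSeq (GRCh38.p14), 250 bases up to the start, for 61 of the 66 genes, and the genes without an entry were H2AC12, H3C11, H3C12, H4C1 and H4C3. Capitals mark 3 motifs on either strand: the CCAAT box, which reads ATTGG on the other strand, the TATA box TATAAA, which reads TTTATA there and can overlap it, and the octamer ATTTGCAT, which reads ATGCAAAT there. H2BC12 is shown for the more distal of its listed starts.
H2AC6, chr6:26123922-26124171, plus strand: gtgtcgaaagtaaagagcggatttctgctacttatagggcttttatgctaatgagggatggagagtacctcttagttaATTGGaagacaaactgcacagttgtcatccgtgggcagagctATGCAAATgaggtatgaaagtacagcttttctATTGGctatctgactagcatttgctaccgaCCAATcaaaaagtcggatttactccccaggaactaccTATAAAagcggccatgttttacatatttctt
H2AC20, chr1:149886668-149886917, plus strand: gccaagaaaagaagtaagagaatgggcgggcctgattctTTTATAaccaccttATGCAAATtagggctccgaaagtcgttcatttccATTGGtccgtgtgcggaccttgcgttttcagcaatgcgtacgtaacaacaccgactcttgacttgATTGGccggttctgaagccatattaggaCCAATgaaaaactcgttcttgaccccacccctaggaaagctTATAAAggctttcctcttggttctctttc
H2BC12, chr6:27146859-27147108, minus strand: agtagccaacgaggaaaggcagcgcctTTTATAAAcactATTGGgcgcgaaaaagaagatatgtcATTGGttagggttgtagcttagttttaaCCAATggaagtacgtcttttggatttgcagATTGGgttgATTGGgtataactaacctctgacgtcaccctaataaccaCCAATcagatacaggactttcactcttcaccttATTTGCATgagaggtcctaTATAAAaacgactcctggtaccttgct
H4C14, chr1:149832407-149832656, plus strand: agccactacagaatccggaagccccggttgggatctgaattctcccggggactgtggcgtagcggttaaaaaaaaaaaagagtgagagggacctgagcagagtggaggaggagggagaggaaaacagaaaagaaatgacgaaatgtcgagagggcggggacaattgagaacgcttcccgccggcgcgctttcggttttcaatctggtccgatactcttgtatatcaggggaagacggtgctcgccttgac
CCAAT stood in the windows of 52 of 61 members and in 32.0% of all 35116 promoter windows. TATAAA stood in 42 of 61 members and 10.7% of all windows, and ATTTGCAT in 26 of 61 members and 1.63%. Among the 13 members past the threshold with a window, 10, 9 and 5 held these motifs. The stretches of H2AC6 and H2BC4 and of H2AC20 and H2BC21 each held all 3, so the pairs did not differ in the presence of these letters, while the H4C14 window held none. Head-to-head genes share most of their windows, so the counts are not independent.

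Across all genes, fold changes followed length and GC content, and the histone genes stood apart from that trend. For the 11150 genes whose mean log2 CPM exceeded 2, Spearman's rho of the log2 fold change was 0.49 with length and -0.51 with GC content, a description across genes of the same libraries. Of 10 equal groups by length, the shortest, up to 1380 bases, showed a median of -0.35 on the log2 scale, with 1.97% of its genes called higher and 44.3% lower. The 35 members with a length and GC content had medians of 518 bases and 57.5% GC, against 3412 bases and 49.2% GC in those genes. In that shortest group 8 of the 1115 genes were histone members, of which 6 were called higher and 0 lower. With an offset for GC content and length fitted in each library, 21 of 35 members were called higher and 0 lower, with a median log2 fold change of 1.00, where 16.1% of all genes were called higher. H1-2 then passed with a log2 fold change of 0.66 (SE 0.09, adjusted p = 0.000829), and H2BC12 had 1.20 (SE 0.08) against 0.71 without the offset. H2AC20 moved to 0.12 and did not pass. GC content came from the longest annotated transcript and length from counts and FPKM, so they can describe different forms of a message. For H2AC6 they were 42.0% and 539 bases. This limits the member values with the offset.

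**Figure D5:**
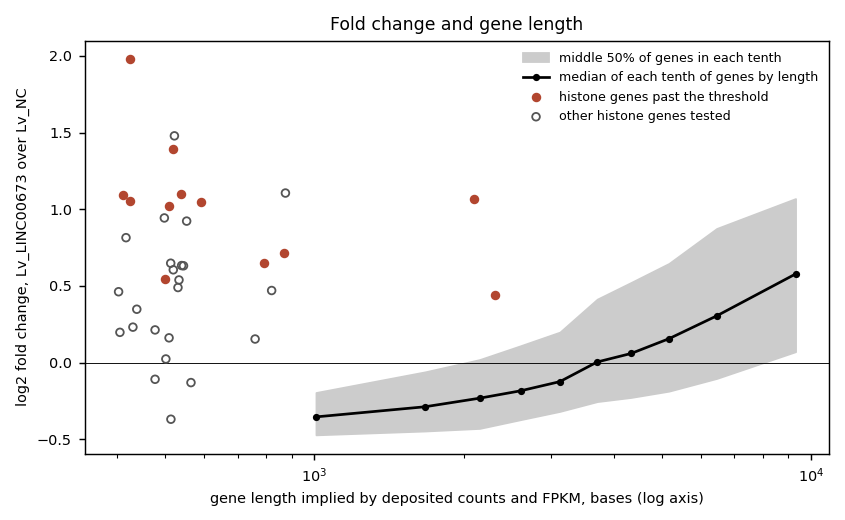
Log2 fold change of Lv_LINC00673 over Lv_NC (y axis) against gene length implied by the deposited counts and FPKM (x axis, log scale); the black line joins the medians of 10 equal groups of genes by length with the middle 50% in grey, red points are histone genes past the threshold and open circles other histone genes tested. The line rises from -0.35 in the shortest group to 0.58 in the longest, and 33 of the 35 histone genes with a length lie left of 1380 bases, most of them above 0.

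For the gene lists that follow, the shares of all genes tested were 14.3% called higher and 12.5% lower. Genes that drive histone transcription were described beside the members. Of 17 tested, 6 were called higher and 2 lower, and their median log2 fold change was 0.17. With library totals alone 7 were higher and 0 lower (median 0.34), and with the offset 5 were higher and 1 lower. NPAT, the coactivator of the histone locus body, had 7.88, 12.6 and 10.4 CPM in Lv_LINC00673, against 3.45, 1.91 and 3.18 CPM in Lv_NC (adjusted p = 0.0045, log2 fold change 1.85, SE 0.27; 1.14 with the offset). CCNE2, a cyclin E that with CDK2 phosphorylates NPAT, had 3.39, 6.47 and 5.40 CPM in Lv_LINC00673, against 2.57, 1.52 and 1.78 CPM in Lv_NC (log2 fold change 1.38, adjusted p = 0.0121), and lost its call without Lv_NC library 3 (adjusted p = 0.054). The acetyltransferase gene EP300 had a log2 fold change of 1.25 (SE 0.11), and CDK2 and E2F1 were the 2 called lower, at -0.36 and -0.32.

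Of 19 genes of histone message processing tested, 6 were called higher and 4 lower, and their median log2 fold change was -0.04. With library totals alone 7 were higher and 1 lower, and with the offset 6 were higher and 5 lower. SLBP, the stem-loop binding protein, averaged 38.3 CPM in Lv_LINC00673 and 36.3 CPM in Lv_NC and did not pass (log2 fold change 0.08, adjusted p = 0.823). CASP8AP2, a histone locus body protein, had 2.99, 4.00 and 2.98 CPM in Lv_LINC00673, against 1.21, 0.765 and 1.03 CPM in Lv_NC (adjusted p = 0.00452, log2 fold change 1.73, SE 0.25; 0.98 with the offset). TUT7, which adds uridines to RNA ends, and the cap-binding gene NCBP1 had log2 fold changes of 1.24 and 1.07, and with the offset 0.61 and 0.57. LSM10, a subunit of the U7 particle that cuts at the stem-loop, was lower at -0.54 (adjusted p = 0.00936).

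Of 38 S-phase and replication genes tested 13 were called higher and 4 lower, where 14.3% of all genes tested were called higher and 12.5% lower. The share called higher was thus above that of all genes. Their median log2 fold change was 0.05, the same as for all genes tested (SLBP, MCM2, CHAF1A, CCNE2 and E2F1 are on other lists too). The lower calls depended on scaling, with 15 higher and 0 lower with library totals alone and 13 higher and 1 lower with the offset. The largest were the polymerase subunit POLA1 at 1.42, CCNE2 as above and the checkpoint gene CLSPN at 1.08. Of 20 G2 and mitosis genes 9 were higher and 3 lower, with a median of 0.45, led by CENPF, CENPE and TOP2A at 1.73, 1.68 and 1.46, which the offset moved to 0.90, 0.78 and 0.82. Of 20 histone chaperone genes 5 were higher and 0 lower (0 lower also with library totals, 2 lower with the offset; median 0.10), with ATRX, SUPT16H and ANP32E at 1.29, 1.22 and 0.98, and ATRX at 0.37 with the offset. ANP32E lost its call without Lv_LINC00673 library 2 or 3 or Lv_NC library 3 (adjusted p = 0.0703, 0.0737 and 0.0692).

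Histone variant genes outside the replication-dependent set form a list of their own, most of them replacement histones. Of 12 tested, 0 were called higher and 5 lower, and their median log2 fold change was -0.23. H3-3A had 105, 99.6 and 108 CPM in Lv_LINC00673, against 126, 126 and 131 CPM in Lv_NC (adjusted p = 0.0261, log2 fold change -0.30, SE 0.08), and CENPA, the centromeric H3, had 31.4, 28.4 and 34.4 CPM in Lv_LINC00673, against 45.5, 43.7 and 42.4 CPM in Lv_NC (-0.48, adjusted p = 0.0139). The linker variant H1-10 had a log2 fold change of -0.32 (adjusted p = 0.023). These small changes depended on scaling, since with library totals alone 1 of the 12 was called higher and 0 lower, and with the offset 3 were higher and 3 lower and H1-10 stood at 0.013. H3-3A lost its call without any 1 of the libraries other than Lv_LINC00673 library 1 (adjusted p 0.0514 to 0.0892), and H1-10 without Lv_LINC00673 library 2 or 3 or Lv_NC library 2 or 3 (0.0573 to 0.0865).

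Other RNAs that lack a poly(A) tail were set beside the members. Most of them were near the floor in both groups, though RN7SL1 was not. Whether poly(A) RNA was selected was not tested. Of 19 listed small nuclear and other structured RNAs with a row, 15 averaged under 1 CPM and none of the 10 tested passed. RN7SL1, the signal recognition particle RNA, had 73.1, 116 and 118 CPM in Lv_LINC00673, against 98.1, 48.5 and 19.8 CPM in Lv_NC, which overlapped (log2 fold change 0.88, adjusted p = 0.332). RPPH1, the RNA of ribonuclease P, was counted 25, 42 and 25 times in Lv_LINC00673 libraries, against 12, 4 and 0 times in Lv_NC libraries, and did not pass (adjusted p = 0.0609). With the offset 2 of the 10 were called higher. The 5 listed nuclear-retained long noncoding RNAs were all called higher, with a median of 0.87, led by MALAT1 (log2 fold change 1.74), TUG1 (1.53) and KCNQ1OT1 (0.87), and 3 of them were with the offset, where KCNQ1OT1 fell away (0.055). MALAT1 lost its call without Lv_LINC00673 library 2 (adjusted p = 0.054), and KCNQ1OT1 without Lv_LINC00673 library 2 or Lv_NC library 3 (0.0712 and 0.0585). Whether these RNAs move with the histone messages for a common reason was not tested.

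How many members passed depended on the libraries used, though no choice called a member lower. Without Lv_LINC00673 libraries 1, 2 and 3, members called higher were 8 of 40, 6 of 39 and 5 of 39. Of all genes tested, 14.2, 6.41 and 7.33% were then called higher. Without Lv_NC libraries 1, 2 and 3, members called higher were 9 of 40, 8 of 41 and 6 of 41, where 14.2, 9.16 and 6.9% of all genes were. H2AC6, H2BC4, H2BC12, H4C14 and H4C15 kept their call in all 19 alternatives, while the other 9 of the 14 lost it in some. H2AC15 was lost without any library but Lv_NC library 3, H4C3 whichever library was left out, and H3C10 without any but Lv_NC library 1 (adjusted p up to 0.117, 0.134 and 0.107 over the alternatives). H2AC18, H2AC19 and H2BC11 were lost without any but Lv_NC library 2 (up to 0.167, 0.161 and 0.106). H2BC5 and H4C8 were lost without Lv_LINC00673 library 2 or 3 or Lv_NC library 2 or 3 (up to 0.103 and 0.125), and H2BC21 without Lv_LINC00673 library 3 or any Lv_NC library (up to 0.0916).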

How the data were processed

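RNA was sequenced from 6 U2OS libraries. The authors deposited raw counts per gene row and a table of FPKM values, with 1 column per library, matched by title (0 columns unused; the count table spells the first group Lv_Lin00673). Per the submitters' processing notes the build was hg38. The sources used here do not give the aligner, counter, annotation, strand setting or FPKM length model. Of 50550 rows 6056 carried no gene symbol (pseudogenes, transcripts and new loci with their own identifiers) and stayed in library sizes and tests. Intervals on counts cover counting error only.

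Members and gene lists were chosen with earlier results of these data known. Genes passing filterByExpr entered edgeR 4.0.16 (R 4.3.3) with TMM factors (robust quasi-likelihood test, group as the only term, two-sided), with Benjamini-Hochberg adjustment over 21933 genes. The pipeline was tested on simulated counts. SE is the log2 fold change over the square root of F, and intervals are at 95%. Every member was named. Of each other list up to 3 genes were named, past the threshold with the largest change and a mean of at least 1 CPM. SLBP, LSM10, CDK2, E2F1, NORAD and the small RNAs were added after their values were seen. Positions are from RefSeq (GRCh38.p14), 1-based. The offset, chosen after the data were seen, used natural splines of GC content (longest GENCODE 29 transcript) and of the length implied by counts and FPKM. These were held to the central 98% of genes, on 16730 genes. For 3 tested members and LINC00673 there was no value. Other alternatives were DESeq2 1.42.0, limma 3.58.1 (voom, and log2(FPKM + 1 or 0.1)), RLE, upper-quartile and library-total scaling, 2 filters, a non-robust fit, a replicate block, each library left out, and repeated rows merged.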

Additional observations from a re-analysis of the deposited data

How the results depend on the processing

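No alternative called a histone member lower, where 408 to 3467 genes in all were. RLE, upper-quartile and library-total scaling called 12, 12 and 15 of 38 members higher (14, 15 and 18.5% of all genes). With no filter 11 of 52 were higher (8.47%), and with at least 1 CPM in 3 libraries 12 of 24 (20.5%). DESeq2, limma-voom and the non-robust fit called 15, 14 and 13 of 38 (16.6, 14.9 and 14.2%). With limma on log2(FPKM + 0.1) and log2(FPKM + 1) 20 and 21 of 38 were higher (16.3 and 16.1%). With the offset 21 of 35 were (16.1%). Leaving out 1 library gave 5 to 9 members higher out of 39 to 41 tested, where 6.41 to 14.2% of all genes were higher. It gave 2716 to 6490 genes called and a median member log2 fold change of 0.52 to 0.68. That median was 0.78 with library totals alone, 0.77 on log2(FPKM + 0.1) and 1.00 with the offset. For the FPKM values 3522 genes were higher and 1220 lower on log2(FPKM + 1). LINC00673 passed in DESeq2 (log2 fold change -0.44, adjusted p = 0.0421; up to 0.353 over 18 alternatives). H1-10 went to 0.013 with the offset. The replicate numbers of the titles did not pair the libraries (correlations of same-numbered libraries -0.423, -0.360 and 0.041). Differently numbered libraries ran from -0.141 to 0.449, the highest for Lv_LINC00673 library 1 with Lv_NC library 2. With a replicate block 5 of 38 members were called higher, where 3.65% of all genes were, and 1208 genes were called in all. The causes were not tested. Summing numbered copy rows was not run, since no member has one. Members under about 1 CPM rest on few reads, which limits what the test can show.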

Other observations

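A few histone rows lie just outside the symbols used and were chosen after their values were seen. H4-16, an H4 gene outside the clusters, was counted 104, 57 and 70 times in Lv_LINC00673 libraries, against 7, 44 and 37 times in Lv_NC libraries, and its libraries lay apart, but it did not pass (2.89-fold, adjusted p = 0.0784). The H2B pseudogene H2BC20P had 3.37, 2.57 and 2.83 CPM in Lv_LINC00673, against 1.46, 2.84 and 2.41 CPM in Lv_NC, and the H3 pseudogene H3P6 had 15.1, 17.4 and 23.2 CPM in Lv_LINC00673, against 21.8, 15.6 and 20.8 CPM in Lv_NC. Both overlapped between the groups (adjusted p = 0.324 and 0.845).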
